A study of Mus musculus with 5 samples.

Results

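The comparison described here sets mouse embryonic fibroblasts (MEFs) of the ICR strain that expressed CypD against fibroblasts of the same strain that expressed Flag as the control, both taken at day 4 of reprogramming. It uses 2 of the series' 5 libraries, the CypD library and the Flag library, and all 29267 genes of the deposited tables. The other 3 libraries, from day 8 of reprogramming, were an untreated control, a mastoparan-treated culture and a paraquat-treated culture, and are quoted only for the level of a gene at that later time. The genotype label of all 3 names CypD expression, as that of the CypD library does. Reprogramming is shared by both day-4 cultures, so neither is an unmanipulated fibroblast. The set of introduced factors, the vector for CypD, the tag on it and the number of pooled embryos were not stated in the labels. Each group is 1 library, so nothing below was checked against replicates, no p-value is given, and the spread between cultures is unknown. Intervals account for counting error alone.

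CypD is cyclophilin D, a peptidyl-prolyl isomerase of the mitochondrial matrix encoded by the nuclear gene Ppif. It is best known as the protein that sensitises the mitochondrial permeability transition, the opening of a large inner-membrane channel in response to matrix calcium and oxidants, and as the mitochondrial target of cyclosporin A. Mitoflashes are brief bursts of superoxide and pH signal in single mitochondria, and transient opening of the permeability transition has been linked to them. The title of the series gives its question as the genes regulated by mitoflash.

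The CypD library held 3426650 expected counts in all and the Flag library 2497654. A count is given below as deposited and rounded, and a level as CPM, which is counts for each 1000000 reads of the scaled library. At these depths 3 counts, the limit that a count of 0 allows, correspond to 0.869 CPM in the CypD library and 1.18 CPM in the Flag library. The fibroblast label was checked on 11 marker genes. Vim, an intermediate filament gene of mesenchymal cells, stood at 4004 TPM (transcripts for each 1000000) with CypD and 4013 TPM with Flag, and Col1a2, a chain of type I collagen, at 397 and 430 TPM. Only Fap, with 6 and 4 counts, was near the limit of detection in both libraries. Markers of other cells were at similar summed levels in both libraries. The summed level of 16 neural and glial markers was 938 CPM with CypD and 876 CPM with Flag, mostly from Stmn2. For 12 endothelial markers the sums were 65.7 and 59.6 CPM, and for 19 macrophage and blood markers 13.0 and 10.3 CPM. The defining genes Cdh5 (endothelium), Csf1r and Adgre1 (macrophage), and Myod1 and Myog (skeletal muscle) had 0 counts in both libraries. In bulk RNA, fewer cells of a type and less RNA per cell cannot be told apart.

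Ppif was the gene that set the CypD library apart. With CypD it had 2629 counts and with Flag 112, or 761 CPM (732 to 791) and 44.2 CPM (36.4 to 53.2). At day 8 the control held 90 counts of it, mastoparan 95 and paraquat 79, or 29.2, 33.3 and 34.2 CPM. Only the CypD library of day 4 was high. The 3 libraries of day 8 lay below Flag, which goes against the CypD expression in their genotype label, so they are not read as libraries with raised Ppif. The CypD library held 17.2 times the Flag level, with a counting interval of 14.3 to 21.0. By TPM, Ppif was the 180th most abundant gene of 16197 with a nonzero TPM where CypD was expressed and the 3768th of 15702 with Flag. The gene (ENSMUSG00000021868) lies on the plus strand of mouse chromosome 14 from 25694154 to 25700468 in mm10, and none of its 49-base windows occurs in another annotated gene. Reads of an introduced Ppif and of the chromosomal gene are counted together, so their shares cannot be told apart.

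The structure of the extra Ppif RNA was read from the deposited average transcript length. The annotation holds a protein-coding Ppif transcript of 1549 bases and a retained-intron transcript of 3637 bases, which still carries sequence that splicing removes. The average length was 1551.72 bases with CypD and 1654.71 with Flag, and at day 8 it was 1633.03 in the control, 1665.29 with mastoparan and 1549 with paraquat. These lengths correspond to a retained-intron share of 0.130% of Ppif transcripts with CypD against 5.06% with Flag. In absolute terms that is 0.952 TPM of the retained-intron form with CypD and 2.08 TPM with Flag. The additional Ppif transcripts of the CypD library were thus assigned to the spliced, protein-coding form. The shares rest on the lengths of this annotation, which matched the deposited length in 71.1% of 14457 genes with a single transcript.

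Cyclophilins share the same isomerase fold but reside in different compartments, so the family gives a measure of whether the difference extended beyond Ppif. Of the 16 family members measured, Ppif held the 10th place by TPM in the Flag library (41.1 TPM) and the 3rd in the CypD library (731 TPM). Only cytosolic cyclophilin A (Ppia, 9163 TPM with CypD and 8812 TPM with Flag) and the endoplasmic reticulum protein cyclophilin B (Ppib, 913 and 877 TPM) stood above it there. Ppic stood at 417 and 422 TPM, and Ppid, a co-chaperone of Hsp90, at 206 and 178 TPM. The other 15 members had log2 ratios from -0.23 for Nktr to 0.32 for Ppwd1, with a median of 0.09. The counting interval left out equality for Ppia (1.05 to 1.11) and Ppib (1.01 to 1.16), both short and abundant transcripts, as it did on the higher side for 4.36% of all genes measured and on the lower side for 4.56%. Neither passed once a trend of the ratio along transcript length, described below, was removed. Beside the log2 ratio of 4.09 for Ppif, the largest of any relative was 0.32.

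**Figure D1:**
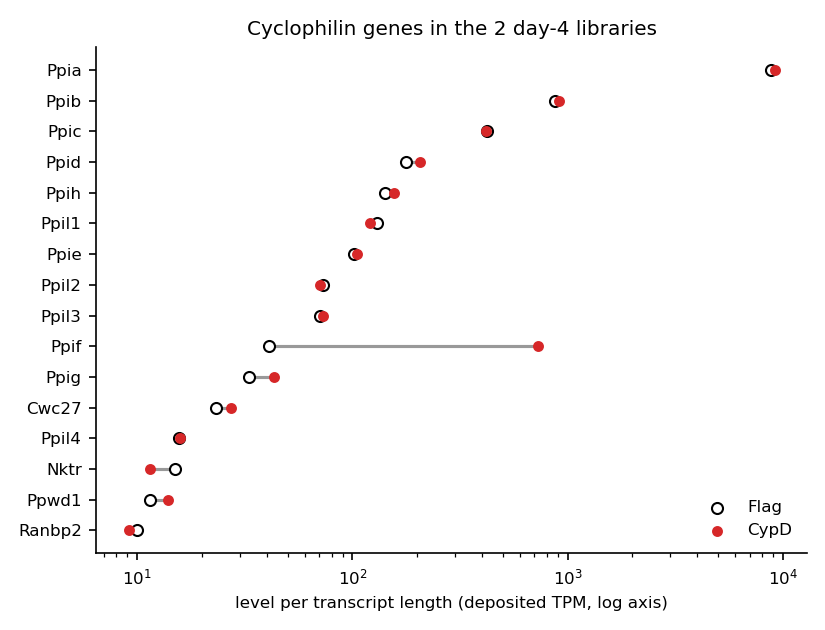
Level of the 16 measured cyclophilin genes in TPM (log axis) in the CypD and the Flag library, 1 point a library. Ppif stands at 731 TPM with CypD and 41.1 TPM with Flag, and the 2 points of each other gene lie close together.

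The proteins that act with cyclophilin D were next examined as a list of 26 permeability transition and mitochondrial calcium genes, of which 25 were measured (5 CPM or more on average over both libraries). Their median log2 ratio was 0.01, against -0.01 over all genes measured, with 13 above and 12 below 0, beside 47.2% of all genes above and 52.8% below. Ppif alone was past 1.5-fold in either direction. Over all 10759 genes measured, 1.71% were at least 1.5-fold higher with CypD and 2.31% at least 1.5-fold lower. The inner-membrane ADP/ATP carriers Slc25a4 (3017 counts with CypD and 2100 with Flag) and Slc25a5 had log2 ratios of 0.08 and 0.04, and the phosphate carrier Slc25a3 of -0.01. The outer-membrane channels Vdac1, Vdac2 and Vdac3 stood at 0.10, 0.09 and 0.05. No carrier or channel of these, each a component once proposed for the permeability transition pore, had a log2 ratio beyond 0.10.

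The counting interval left out equality on the higher side for 4.36% of all genes and on the lower side for 4.56%. Of the 25 genes here it did so for 5, 3 (12%) higher and 2 (8%) lower with CypD. After Ppif these were Tspo, the outer-membrane cholesterol-binding protein, with 469 counts with CypD and 278 with Flag (1.24-fold, 1.07 to 1.44), and Smdt1, the EMRE subunit that joins the calcium uniporter to its regulators, with 301 and 181 counts (1.22-fold, 1.01 to 1.48). Lower were Hk1, the hexokinase that binds the outer membrane, with 349 and 332 counts (0.771-fold, 0.662 to 0.899), and Letm1, an inner-membrane cation exchanger, with 255 and 230 counts (0.814-fold, 0.678 to 0.977). The pore of the calcium uniporter itself, Mcu, had 128 and 78 counts and a log2 ratio of 0.26, and its gatekeeper Micu2 had -0.02. With the trend along transcript length removed, Ppif and Tspo remained higher by the interval rule and Hk1 lower. The pair of libraries thus differed in Ppif and by at most about 1.3-fold in the other genes here whose intervals left out equality.

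Across the transcriptome few well-measured genes differed. Of the 10759 genes measured, 184 were at least 1.5-fold higher with CypD and 249 at least 1.5-fold lower, and at 2-fold the numbers were 32 (0.297%) and 40 (0.372%). Most of these had few reads. Between 5 and 10 CPM, 19.1% of 1164 genes were past 1.5-fold, between 10 and 20 CPM 8.67% of 1754, between 20 and 50 CPM 1.55% of 3362, and between 50 and 200 CPM 0.166% of 3611. At 200 CPM and above, 1 of 868 genes was past 1.5-fold, and that gene was Ppif. The SD of the log2 ratio over genes narrowed over the same bands, from 0.51 to 0.38, 0.24 and 0.16, and was 0.18 in the highest band, which holds Ppif. Over all measured genes the median log2 ratio was -0.01, with quartiles of -0.15 and 0.12.

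**Figure D2:**
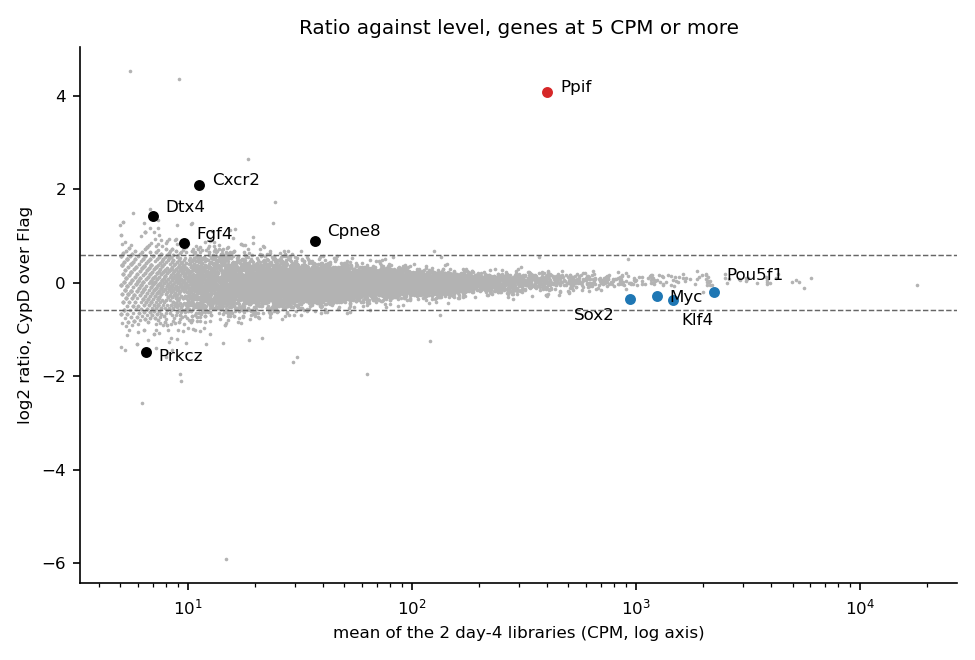
Log2 ratio of CypD to Flag (vertical axis) against the mean level in CPM (log axis) for 10759 genes, 1 point a gene. The spread narrows as the level increases, and Ppif at 4.09 lies apart from the other genes above 200 CPM.

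The distance between the day-4 libraries was set beside those of the other pairs of libraries, on the 7841 genes that averaged 20 CPM or more at day 4. CypD and Flag differed with an SD of the log2 ratio of 0.20, and 59 genes (0.752%) were past 1.5-fold, 22 (0.281%) higher with CypD and 37 (0.472%) lower. Mastoparan and control at day 8 differed with an SD of 0.20 and 62 genes (0.791%) past 1.5-fold. Paraquat and control differed with an SD of 0.35 and 595 genes (7.59%). Pairs made of a day-4 and a day-8 library had between 16.4% and 29.1% of these genes past 1.5-fold. The number of genes separating CypD from Flag was near that separating mastoparan from control and well below that of the other pairs. The genes were chosen by their day-4 level, the pairs share libraries, and these distances were not tested against each other.

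Reprogramming of fibroblasts commonly uses Oct4 (Pou5f1), Sox2, Klf4 and Myc, and all 4 were abundant in both libraries. Each was lower in the CypD library. Pou5f1 had 7189 counts with CypD and 6056 with Flag, or 2082 and 2390 CPM (0.871-fold, 0.842 to 0.902). Sox2 had 2879 and 2680 counts, or 834 and 1058 CPM (0.788-fold, 0.748 to 0.831). For Klf4 the counts were 4408 and 4172, or 1276 and 1646 CPM (0.775-fold, 0.743 to 0.809), and for Myc 3857 and 3445, or 1117 and 1359 CPM (0.822-fold, 0.784 to 0.860). The intervals of all 4 lay below equality, the median log2 ratio was -0.31, and it stayed at -0.31 with the length trend removed. The range over scaling methods applied to the counts was -0.38 to -0.34 for Klf4, while the deposited TPM gave -0.57. The average length of Klf4 transcripts was 2286 bases with CypD and 2066 with Flag, which enters the TPM and not the count. By TPM rank, Pou5f1 went from 38th with Flag to 44th with CypD, Myc from 73rd to 97th, Klf4 from 93rd to 160th and Sox2 from 208th to 296th. The day-8 levels of Pou5f1 were 3072 CPM in the control, 2946 with mastoparan and 1868 with paraquat, so the difference between the day-4 libraries was smaller than that between the day-8 control and paraquat. The same held for Sox2 at 944, 908 and 526 CPM. Gene-level counts pool introduced and chromosomal copies, which therefore cannot be told apart.

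**Figure D3:**
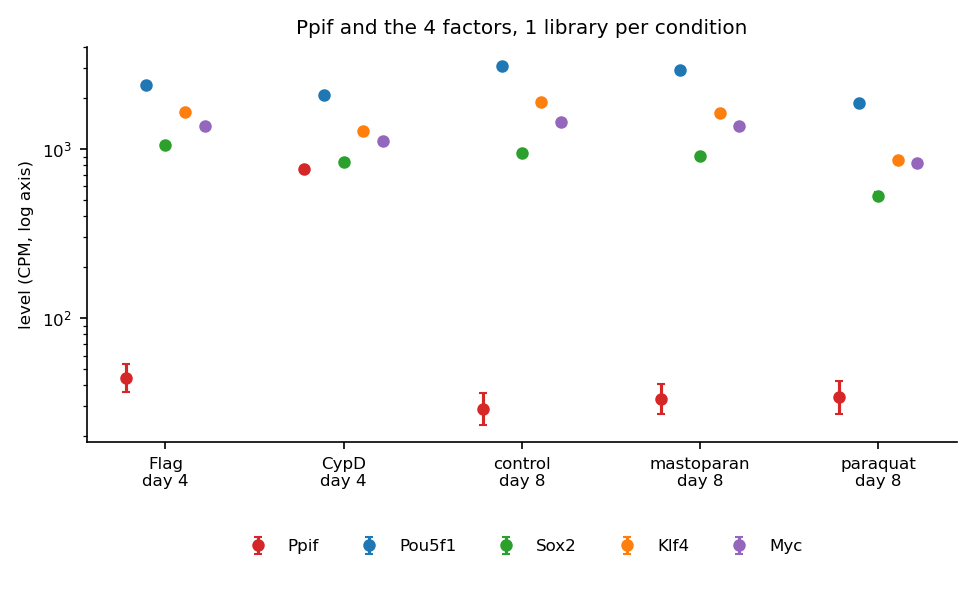
Levels of Ppif and of the 4 reprogramming factors in CPM (log axis) in all 5 libraries, with exact 95% counting intervals. Ppif is high in the CypD library alone, and each factor is lower with CypD than with Flag, by 0.20 to 0.37 on the log2 scale.

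Genes of the early pluripotent state were mostly low at day 4 in both libraries. Of 32 listed genes 9 were measured, and 10, among them Lin28a, Esrrb, Nr5a2, Dppa3 and Prdm14, had 0 counts in both libraries. Nanog, a central factor of the pluripotent state, had 11 counts with CypD and 12 with Flag, or 3.19 and 4.74 CPM, a ratio of 0.673 with an interval of 0.269 to 1.67. A Nanog difference was not detectable at this depth. Sall4 had 1 and 0 counts, Zfp42 (Rex1) 1 and 0, and Utf1 1 and 1. The 9 measured genes had a median log2 ratio of 0.06, with 6 above 0 and 3 below, beside 47.2% of all genes above and 52.8% below. With the length trend removed 5 were above 0 and 4 below. Fgf4, a growth factor gene that Oct4 and Sox2 activate in embryonic stem cells, was the 1 member past 1.5-fold, with 43 and 17 counts (1.86-fold, 1.04 to 3.47). Over all genes measured 1.71% were at least 1.5-fold higher, and 4.36% were higher by the interval rule. L1td1, an RNA-binding protein gene of pluripotent cells and the most abundant of the list, had 600 and 397 counts and a log2 ratio of 0.15, and Alpl, the alkaline phosphatase used to stain early colonies, 153 and 108 counts and 0.06. Cdh1 (E-cadherin) had 34 counts in each library, a log2 ratio of -0.43, and Epcam 42 and 44, a log2 ratio of -0.50. The counting intervals of the 2 libraries overlapped for both genes. They were 6.82 to 13.8 CPM with CypD and 9.29 to 18.7 CPM with Flag for Cdh1, and 8.77 to 16.4 and 12.6 to 23.3 CPM for Epcam.

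DNA methylation is removed from pluripotency genes during reprogramming, and Tet enzymes oxidise 5-methylcytosine in the process. Tet2 had 111 counts with CypD and 83 with Flag, a log2 ratio of -0.03 and an interval of 0.73 to 1.32. Tet3 had 146 and 114 counts (-0.09, interval 0.73 to 1.21), and Tet1 16 and 12 (interval 0.434 to 2.27). By counts no Tet gene differed beyond counting error. The deposited TPM of Tet1 was 0.49 with CypD and 1.01 with Flag, where its average transcript length was 13986 and 7080 bases. Of the 18 genes measured in a list of 21 writers, readers and erasers, the median log2 ratio was -0.05, with 7 above and 11 below 0. The maintenance methyltransferase Dnmt1 had 808 and 664 counts (0.893-fold, 0.805 to 0.991), while its partner Uhrf1 had 802 and 605 and a log2 ratio of -0.04. The de novo methyltransferase Dnmt3a stood at 142 and 126 counts (-0.27), and Dnmt3b at 25 and 25 (-0.42). Apobec1, a cytidine deaminase, was the 1 member past 1.5-fold, with 42 and 48 counts (0.642-fold, 0.414 to 0.992). Dnmt1 and Apobec1 were the 2 members (11.1%) whose intervals left out equality, both lower, beside 4.56% of all genes lower. Both intervals included equality once the length trend was removed.

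A shift along transcript length ran through the comparison and bears on every list of short or long genes. With the measured genes in 10 equal groups by length, the shortest group had a median length of 806 bases, and there the median log2 ratio was 0.10. It declined through 0.05, 0.01, 0.00, -0.01, -0.03, -0.05, -0.06 and -0.08 to -0.08 in the longest group, with a median of 6893 bases. Along GC content the medians ran only from 0.00 to -0.04. List medians are therefore given below with and without the length trend, which was removed by subtracting the median of 40 length bins. Without the trend 3.43% of all genes were higher and 3.63% lower by the interval rule. Whether the length trend came from the cultures or from the libraries was not tested.

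Nuclear genes for the respiratory chain, the assembly of membrane complexes that carries electrons to oxygen, stood slightly higher with CypD as deposited. The median log2 ratio was 0.12 over 37 complex I genes (33 above 0), 0.08 over 14 genes of complexes II and III (10 above 0), 0.12 over 11 genes of complex IV (9 above 0) and 0.12 over 17 ATP synthase genes (13 above 0). None of these genes was past 1.5-fold. By the interval rule 6 complex I genes were higher and 0 lower, 2 and 0 of complexes II and III, 4 and 0 of complex IV, and 9 and 1 of the ATP synthase, beside 4.36% and 4.56% of all genes. With the length trend removed the 4 medians were 0.02, -0.01, 0.00 and 0.04. The interval rule then called 2 complex I genes higher and 1 lower, 0 and 1 of complexes II and III, 0 and 2 of complex IV, and 3 and 3 of the ATP synthase, beside 3.43% and 3.63% of all genes. Examples before that removal were Ndufc2 of complex I (522 counts with CypD and 312 with Flag, a log2 ratio of 0.29, 1.07 to 1.42), Uqcrb of complex III (511 and 315, 0.25), Cox5b of complex IV (888 and 573, 0.19) and Atp5g1, a subunit of the proton-driven ring (1097 and 680, 0.24). Another ring subunit gene, Atp5g2, had 1519 and 760 counts and a log2 ratio of 0.55, but it shares 36.8% of its windows with the gene Gm10175. Summed with that copy its log2 ratio was 0.12. None of the 13 mRNAs encoded by mitochondrial DNA was found by symbol in the deposited tables, so they were not analysed here.

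**Figure D4:**
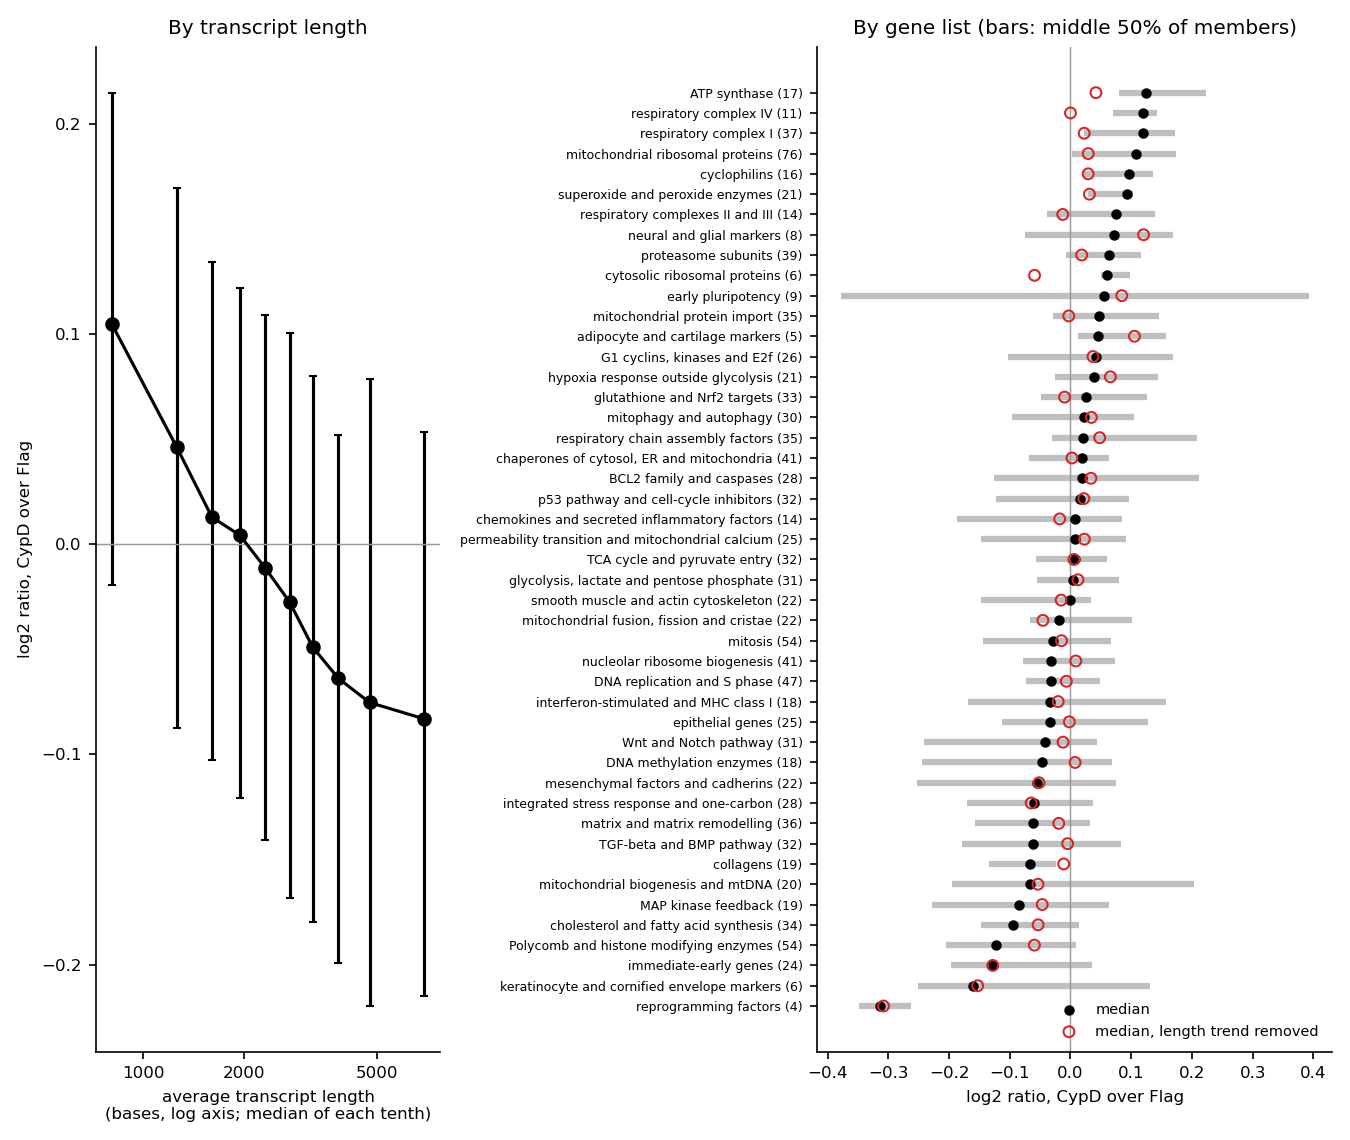
Left, median log2 ratio of CypD to Flag in 10 groups of genes by transcript length in bases (log axis), with quartiles. Right, median log2 ratio of each gene list, with bars over the middle 50% of members, as deposited and with the length trend removed, where complexes I and IV, the ATP synthase and the mitochondrial ribosome lie between 0.11 and 0.12 before and between 0.00 and 0.04 after.

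Other mitochondrial systems showed the same small offset where their genes are short. Mitochondrial ribosomal proteins, which translate the mitochondrial mRNAs, had a median log2 ratio of 0.11 over 76 genes (57 above 0), and of 0.03 with the length trend removed. By the interval rule 8 (10.5%) were higher and 0 lower before the removal, and 3 (3.95%) and 1 (1.32%) after. Over all genes 4.36% were higher and 4.56% lower before, and 3.43% and 3.63% after. Mrpl43 had 205 and 109 counts (1.38-fold, 1.09 to 1.76) and Mrps21 312 and 173 (1.32-fold, 1.10 to 1.60). Protein import genes had a median of 0.05 over 35 genes, and 0.00 after the removal. Tomm22, a receptor of the outer-membrane import pore, had 566 and 337 counts and a log2 ratio of 0.30, and Grpel2, a nucleotide exchange factor for the matrix Hsp70, had 88 and 93 counts and was lower (0.694-fold, 0.513 to 0.940). Assembly factors of the respiratory chain had a median of 0.02 over 35 genes, with Ndufaf1, needed to build complex I, at 100 and 50 counts (1.47-fold, 1.04 to 2.10).

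Among 20 measured genes of mitochondrial biogenesis and mitochondrial DNA maintenance, 3 were higher by the interval rule, and all 3 remained with the length trend removed, beside 4.36% of all genes before and 3.43% after. Esrra, a nuclear receptor that drives genes of oxidative metabolism, had 285 counts with CypD and 156 with Flag (1.34-fold, 1.10 to 1.64). Tfam, which packages and transcribes mitochondrial DNA, had 285 and 167 (1.25-fold, 1.03 to 1.53). Gabpb1, a subunit of nuclear respiratory factor 2, had 105 and 54 (1.43-fold, 1.02 to 2.02). The list as a whole had a median of -0.07, with 9 above and 11 below 0. Its 1 member past 1.5-fold was lower with CypD, at -0.81, beside 2.31% of all genes at least 1.5-fold lower. By the interval rule 0 members were lower. Fusion and fission genes had a median of -0.02 over 22 genes. Dnm1l (Drp1), the dynamin that divides mitochondria, had 346 and 205 counts and a log2 ratio of 0.31 (1.04 to 1.48). Its receptor Mff stood at -0.24, and Oma1, the inner-membrane protease that processes Opa1, had 44 and 46 counts and a log2 ratio of -0.49. Mitophagy genes had a median of 0.02 over 30 genes and TCA cycle genes of 0.01 over 32. In the TCA cycle list 1 gene was past 1.5-fold, lower with CypD at -1.39.

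Oxidant and stress responses are the usual readout of altered mitochondrial superoxide, and by list median they differed little between the libraries. Superoxide and peroxide enzymes had a median log2 ratio of 0.09 over 21 genes (0.03 with the length trend removed). By the interval rule 4 (19.0%) were higher and 0 lower before the removal, and 1 (4.76%) and 1 (4.76%) after. Over all genes 4.36% were higher and 4.56% lower before, and 3.43% and 3.63% after. Among the superoxide and peroxide enzymes Txn1, the cytosolic thioredoxin, had 2076 and 1367 counts and a log2 ratio of 0.16. Glutathione and Nrf2 genes had a median of 0.03 over 33 genes, the integrated stress response -0.06 over 28, chaperones 0.02 over 41 and p53 targets 0.02 over 32. No gene of these 4 lists was past 1.5-fold except 1 chaperone, lower with CypD. By the interval rule 4 chaperones (9.76%) were higher and 2 (4.88%) lower, and 5 (12.2%) and 2 (4.88%) with the length trend removed. Nnt, which makes NADPH from NADH in the inner membrane, had 240 and 141 counts and a log2 ratio of 0.32 (1.01 to 1.55). Of 28 BCL2 family genes, the regulators of outer-membrane permeability in apoptosis, Bcl2l11 (Bim) was higher at 57 and 25 counts (1.67-fold, 1.03 to 2.79). Pmaip1 (Noxa) had 17 and 20 counts and a log2 ratio of -0.63. The list's median was 0.02.

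Cell cycle genes had medians near 0. The median log2 ratio was -0.03 over 47 DNA replication genes, -0.03 over 54 mitotic genes and 0.04 over 26 genes of the G1 cyclin and E2f group. By the interval rule 0 replication genes differed in either direction, and 0 mitotic genes were higher and 3 (5.56%) lower. The mitotic share that was lower is near that of all genes, of which 4.36% were higher and 4.56% lower. Of the G1 cyclin and E2f group 3 (11.5%) were higher and 3 (11.5%) lower. With the length trend removed 2 (7.69%) of that group were higher and 2 (7.69%) lower, beside 3.43% and 3.63% of all genes. The lower mitotic genes were Kif20a, a kinesin of cytokinesis (-0.41, with 382 and 372 counts), the kinetochore gene Nuf2 (-0.35) and the cleavage-furrow scaffold Anln (-0.26). E2f7, a repressor of E2f targets, had 57 counts with CypD and 22 with Flag (1.90-fold, 1.14 to 3.27). Tfdp1, the partner through which E2f proteins bind DNA, had 424 and 422 counts (0.737-fold, 0.643 to 0.846), with an interval on the other side of equality.

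Loss of the mesenchymal program and gain of epithelial genes mark the early phase of fibroblast reprogramming. Epithelial genes had a median log2 ratio of -0.03 over the 25 of 48 that were measured, with none past 1.5-fold and 0 higher and 1 lower by the interval rule. Mesenchymal genes had a median of -0.05 over 22 genes, with and without the length trend. By the interval rule 2 (9.09%) were higher and 1 (4.55%) lower, and 4 (18.2%) and 0 with the length trend removed. Over all genes 4.36% were higher and 4.56% lower, and 3.43% and 3.63% with the length trend removed. The fibroblast surface protein Thy1 had 165 and 86 counts (1.41-fold, 1.08 to 1.85) and S100a4, a calcium-binding protein of motile fibroblasts, was 1.19 times as high (1.10 to 1.29). Both were higher with CypD, while the limb and skeletal factor Tbx15 was lower (-0.32). Collagens had a median of -0.07 over 19 genes, with 4 above and 15 below 0 and 4 lower by the interval rule, and of -0.01 with 1 lower after the length trend was removed. Col4a5, a basement membrane chain, had 130 and 141 counts (0.677-fold, 0.529 to 0.865). Among 36 other matrix genes the median was -0.06, with 12 above and 24 below 0, and by the interval rule 3 (8.33%) were higher and 6 (16.7%) lower. With the length trend removed the median was -0.02, with 18 above and 18 below 0. The interval rule then called 2 (5.56%) higher and 4 (11.1%) lower. Postn, periostin, was higher at 107 and 53 counts (1.48-fold, 1.06 to 2.10), as was Eln, elastin, at 171 and 94 (1.33-fold, 1.03 to 1.74). Ccn2, a secreted target of TGF-β and Yap signalling, was lower at 411 and 374 counts (0.806-fold, 0.699 to 0.930). In the smooth muscle and actin list, with a median of 0.00 over 22 genes, the non-muscle myosin gene Myh9 was lower (1431 and 1257 counts, 0.835-fold, 0.774 to 0.902) and the focal adhesion adaptor Tgfb1i1 higher (98 and 49 counts, 1.47-fold, 1.03 to 2.11).

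Immediate-early genes, the transcription factors induced within minutes of a signal, had the lowest median of the signalling lists at -0.13 over 24 genes, with 7 above and 17 below 0. It was -0.13 with the length trend removed as well. By the interval rule 0 were higher and 5 lower before that removal, and 0 and 3 after, while 4.56% of all genes were lower before and 3.63% after. Nr4a1, an orphan nuclear receptor, had 594 and 539 counts (0.809-fold, 0.718 to 0.910), and Csrnp1 28 and 35 (0.587-fold, 0.344 to 0.993). The related receptor Nr4a2 had 38 and 18 counts and a log2 ratio of 0.60. MAP kinase feedback genes had a median of -0.08 over 19 genes, with none outside counting error. TGF-β and BMP genes had a median of -0.06 over 32, which was 0.00 after the removal. In the Wnt and Notch list, with a median of -0.04 over 31, Lef1, a DNA-binding partner of β-catenin, had 31 and 10 counts (2.27-fold, 1.09 to 5.20), while the Wnt co-receptor Lrp5 had 183 and 187 (0.718-fold, 0.582 to 0.885). Interferon-stimulated and MHC genes had a median of -0.03 over the 18 of 35 measured, with Eif2ak2, the kinase PKR, at 69 and 31 counts (1.63-fold, 1.05 to 2.58).

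Metabolic and chromatin lists were next. Glycolysis genes had a median of 0.00 over 31 genes. Both members past 1.5-fold there were isoforms of the enzyme that sets fructose 2,6-bisphosphate, Pfkfb4 (20 and 25 counts, a log2 ratio of -0.72) and Pfkfb2 (18 and 21, -0.62), each lower with CypD and each low in counts. Cholesterol and fatty acid genes had a median of -0.10 over 34 (12 above and 22 below 0), and of -0.05 with the length trend removed. Dhcr7, the last enzyme of cholesterol synthesis, had 180 and 197 counts (0.670-fold, 0.545 to 0.825). Proteasome subunits had a median of 0.06 over 39, with Psmd10, the assembly chaperone gankyrin, at 109 and 51 counts (1.57-fold, 1.11 to 2.23). Polycomb and histone-modifying enzymes, most of them long genes, had a median of -0.12 over 54, with 15 above and 39 below 0, and of -0.06 with the length trend removed. The interval rule called 0 higher and 7 (13.0%) lower before, and 0 and 3 (5.56%) after. Over all genes it called 4.36% higher and 4.56% lower before, and 3.43% and 3.63% after. Kdm5c, a histone H3K4 demethylase, had 474 and 431 counts (0.807-fold, 0.707 to 0.922). Suv39h2, an H3K9 methyltransferase, had 52 and 59 (0.647-fold, 0.437 to 0.955).

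Single genes at the ends of the ranking were read at 20 CPM and above, among genes with under 20% of their windows shared. In that set of 7305 genes 18 (0.246%) were at least 1.5-fold higher with CypD and 29 (0.397%) at least 1.5-fold lower. At 2-fold 1 gene was higher (0.0137%), Ppif, and 1 lower (0.0137%), BC037034 (47 and 115 counts, a log2 ratio of -1.70), a clone-named gene singled out after its values were seen. Outside the set, because it has no shared-sequence value, was the bare ID ENSMUSG00000091964, also singled out after its values were seen. It had 131 counts with CypD and 28 with Flag (3.43-fold, 2.27 to 5.36). Within the set the highest ratio after Ppif was that of Cpne8, a copine that binds membranes in response to calcium. Cpne8 lies on the minus strand of chromosome 15 from 90487482 to 90679432. It had 167 counts with CypD and 65 with Flag, or 48.4 and 25.7 CPM (1.89-fold, 1.41 to 2.55). The day-8 libraries held 36.6, 42.8 and 79.3 CPM of Cpne8, so both day-4 values lay below the paraquat value. Next came Tceanc2 (95 and 40 counts, 0.78), Atmin, a cofactor of the DNA damage kinase ATM (96 and 41 counts, 1.72-fold, 1.18 to 2.54), and Renbp (91 and 40, 0.72). Erlec1, an endoplasmic reticulum lectin that takes part in protein quality control, had 137 and 62 counts (1.62-fold, 1.19 to 2.23). Rabgef1, an activator of the endosomal GTPase Rab5, had 115 and 52 counts (1.62-fold, 1.16 to 2.30). Lipa, the lysosomal acid lipase, had 97 and 46 (1.55-fold, 1.08 to 2.25). Mccc2, a mitochondrial carboxylase subunit of leucine breakdown, had 114 and 54 (1.55-fold, 1.11 to 2.18). For Atmin the day-8 levels of 17.8, 17.9 and 17.8 CPM lay near the Flag value of 16.2 CPM and below the CypD value of 27.8 CPM.

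At the lower end, Adgre5 (CD97), an adhesion receptor, had 67 counts with CypD and 85 with Flag (0.578-fold, 0.414 to 0.806), or 19.4 and 33.5 CPM. Its day-8 levels were 34.4, 30.2 and 29.0 CPM, all nearer to Flag than to CypD. Naa16, a subunit of an N-terminal acetyltransferase, had 60 and 74 counts (0.595-fold, 0.416 to 0.848). Commd5 had 71 and 86 counts (0.606-fold, 0.436 to 0.839), and Parp6 62 and 73 (0.623-fold, 0.437 to 0.886). The best counted of the 15 lowest was Tmem201, an inner nuclear membrane protein, with 143 and 163 counts (0.644-fold, 0.511 to 0.811). Its day-8 levels of 38.9, 46.0 and 41.6 CPM lay near the CypD value of 41.4 CPM and below the Flag value of 64.3 CPM. Zfp512 and Adamts10, a secreted protease of the microfibril-associated group, had log2 ratios of -0.64 and -0.65. For the genes at both ends, the intervals are not adjusted for having been picked as the most extreme of many.

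**Figure D5:**
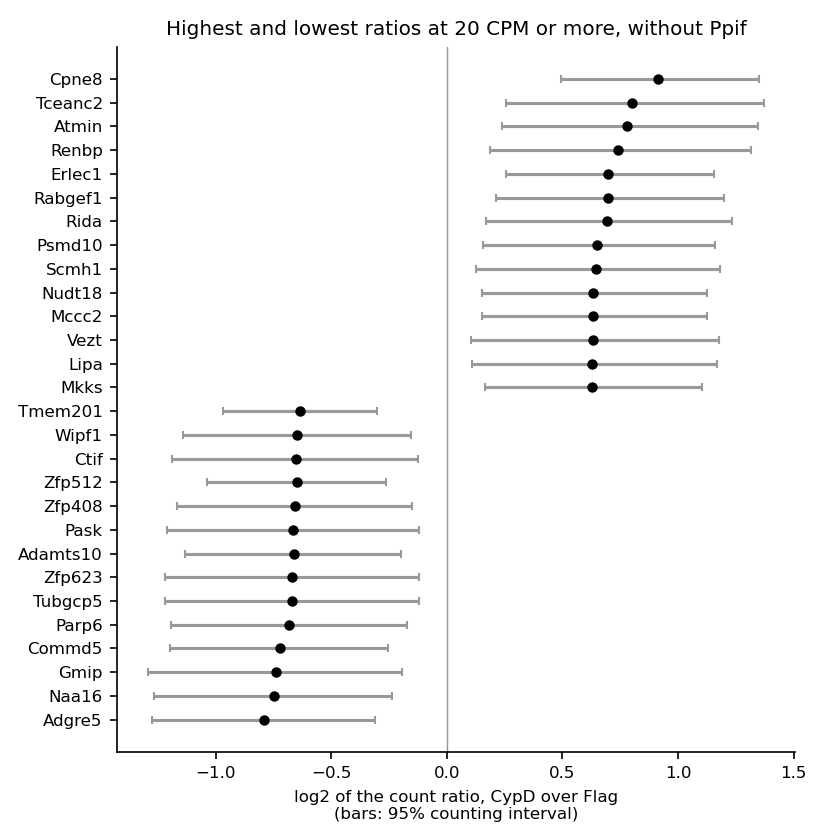
Log2 ratio of CypD to Flag with exact 95% counting intervals for the highest and lowest genes at 20 CPM and above, leaving out Ppif and a gene not reported here. Cpne8 is the highest at a fold of 1.89, Adgre5 the lowest at 0.578, and each interval lies on 1 side of 0.

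Between 5 and 20 CPM ratios were larger and counts fewer, and the day-8 levels show how far the day-4 pair lay from the later libraries. Cxcr2, a chemokine receptor, had 64 counts with CypD and 10 with Flag, or 18.5 and 3.95 CPM (4.70-fold, 2.40 to 10.3), and stood at 10.7 CPM in the day-8 control, 9.47 with mastoparan and 3.03 with paraquat. More extreme ratios in this range, singled out after their values were seen, belonged to genes that share sequence. Higher were Gm14308, with 38 counts against 0, Nanp, with 62 counts against 1, and Btg3 (2.65). Lower were Gm7334, with 0 counts against 75, Ankrd23 (-2.57), Gm6741 (-2.11) and Hist2h2aa1 (-1.96). These 7 share between 50.9% and 100% of their windows with another gene. For Cxcr2 the CypD value was the highest of the 5, and the Flag value lay between those of paraquat and mastoparan. Stxbp6 had 32 and 9 counts (a log2 ratio of 1.27, 1.22 to 6.21), with day-8 levels of 4.22, 3.16 and 3.03 CPM. Prkcz, the atypical protein kinase C zeta of the cell polarity complex, had 11 and 25 counts, or 3.19 and 9.87 CPM (0.323-fold, 0.143 to 0.680). At day 8 Prkcz stood at 28.5, 28.1 and 26.9 CPM, above both day-4 values. Chsy3, a chondroitin synthase, had 19 and 36 counts (a log2 ratio of -1.29, 0.21 to 0.69) and 2.92, 1.75 and 0.433 CPM at day 8, below both day-4 values. Wasf3, a regulator of actin branching, had 28 and 52 counts (-1.29, 0.24 to 0.64), with day-8 levels of 13.6, 9.83 and 5.63 CPM.

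Genes that share sequence with a near copy were read as sums, because reads that fit both can be split differently in each library. The log2 ratio of Gm10273 was 1.28 and became 0.03 when its counts were added to those of Timm23, an import channel gene with which it shares sequence. Btg3, with 112 and 12 counts, and its copy Gm7334, with 0 and 75, summed to -0.08, and Nanp and its copy Gm6741, with 11 and 39 counts, to 0.41. Gm20431 stood at -1.60 and its sum with Ube2v1 at -0.10. Ncoa4, the receptor for ferritin degradation, stood at -1.17, its copy Gm6768 at 0.52, and their sum at -0.02. The apparent differences of over 2-fold in Gm10273, Gm20431 and Ncoa4 were thus absent from the sums. Nr2c2ap kept part of its ratio, from 0.68 alone to 0.45 with Rfxank.

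Isoform use was read from the average transcript length in 5415 genes with at least 100 counts in both libraries. In 2765 the length differed by at most 1%. It was over 1.1 times as long with CypD in 356 genes and shorter by the same factor in 346, nearly balanced in direction. Mtor, the kinase that links nutrients to growth, had an average length of 8564 bases with CypD and 4550 with Flag at 175 and 134 counts. Its log2 ratio of scaled counts was -0.06, yet its TPM was 8.59 and 17.6. Fam210a had 9332 and 4835 bases, with 194 and 138 counts and a TPM of 8.73 and 17.0. In the other direction Tulp4 had 2049 and 3880 bases, with 385 and 252 counts and a TPM of 80.5 and 38.9, and Ubap1, a subunit of the endosomal ESCRT-I complex, had 1500 and 2625 bases and a TPM of 51.9 and 28.2. For these genes the TPM differed by close to 2-fold while the scaled counts were nearly level, so their TPM ratios reflect the assignment of reads to transcripts of different length. The precision of that assignment is not given in the deposited tables.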

How the data were processed

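Per the labels' protocols, 1 ug of Trizol-extracted total RNA went into a TruSeq RNA library for each sample. The submitters' processing notes name Bowtie2 2.2.5 and mm10. No program for the step from alignments to gene counts is given in the sources used here. Each of the deposited tables holds, per the file headers, an expected count, a TPM, an FPKM, an average length and an effective length for each gene, unscaled in the case of the expected counts. The deposited TPM sums to 1000000 in each library. The deposited FPKM was used only for library sums.

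Expected counts were rounded and scaled by TMM factors over all 5 libraries with edgeR 4.0.16 (R 4.3.3). The factor of the CypD library was 1.01 and that of Flag 1.01. Log2 ratios are of CPM with a pseudocount of 0.5 CPM, which understates differences of low genes. Folds and exact Clopper-Pearson 95% intervals use scaled counts without a pseudocount. Reads are not independent molecules, so intervals and floors cover counting error only. A gene counts as measured if it averaged 5 CPM or more over both day-4 libraries. Of 29267 IDs 28756 had a symbol in GENCODE M21 (GRCm38, the assembly of mm10). Shared sequence is the percent of a gene's 49-base windows found in another gene, with 20% as the limit. The code was tested on simulated data. Python 3.11.15, numpy 2.4.6, scipy 1.17.1, pandas 2.3.3 and matplotlib 3.10.9 were used.

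Named genes were Ppif, the reprogramming factors, Nanog and the Tet genes; the 15 highest and 15 lowest ratios at 20 CPM and above and the 8 highest and lowest between 5 and 20 CPM, without predicted genes, clone names, bare IDs or shared sequence; up to 5 members a list with the largest ratios; all members of the core lists; and the 5 largest length shifts each way. The text gives the values of those that matter most, and a few named by these rules are not reported here. The genes compared, the 51 lists and the rules were chosen with earlier results of these data known. Alternatives were upper-quartile factors, DESeq2 1.42.0 size factors, library totals, deposited TPM in place of counts, pseudocounts of 0.1 and 2 CPM, no filter or 20 CPM, removal of the length trend, the 20 most abundant genes left out, and shared sequence left out. Removal of length and GC trends together was added after seeing the data.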

Additional observations from a re-analysis of the deposited data

How the results depend on the processing

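The Ppif log2 ratio lay between 4.05 and 4.14 under every alternative tried. Of the alternative values of named genes, 2871 stayed within the gene's counting interval, 36 moved out of it and 4 called ratios changed sign. The 4 reversals were of ratios near 0 in short abundant genes. With the length trend removed Rplp1 went to -0.0617. With length and GC trends removed Cox6c went to -0.00881, Ppia to -0.0134 and Rplp1 to -0.0304. The median of the complex IV list went from 0.12 to 0.00 with the length trend removed and to -0.00881 with both trends removed. That of 19 collagens went from -0.07 to -0.01 with the length trend removed and turned to 0.0047 with both removed. The number of genes at least 1.5-fold higher was 184, and it was 2412 with no filter and 22 at 20 CPM. The number at least 1.5-fold lower was 249, and it was 438 by deposited TPM (215 higher), 2122 with no filter and 37 at 20 CPM. At 2-fold the 32 higher became 19 with a pseudocount of 2 CPM, 836 with no filter, 3 at 20 CPM and 19 with shared sequence left out, and the 40 lower became 23, 654, 5 and 23, and 79 by deposited TPM. The unfiltered numbers are made mostly of genes with few reads. By TPM the median of all genes moved from -0.01 to -0.06, and by the count scalings it lay between -0.02 and 0.01. No paired analysis was possible because each group has 1 library, and for the same reason no library could be left out. Depth limits the low genes: 19.1% of those between 5 and 10 CPM were past 1.5-fold, beside 1.55% between 20 and 50 CPM.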
